A study of Mus musculus with 2 samples.

Results

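The transcripts described here are those of 8 genes that mark and maintain epithelial identity: Cdh1, Cdh3, Epcam, Esrp1, Esrp2, Rab25, Ovol1 and Ovol2. They were taken by name, as every gene spot of the deposited scanner files that carries one of these symbols. This gave 9 probes (Esrp1 has 2) in 36 spots per array, out of 39429 probes for 29875 genes in 157716 gene spots. All 9 probes were well above background in all 4 RNA channels and all were tested. They were measured in mouse ureters explanted at E15.5 and kept for 6 days on transwell membranes. Total RNA of mutant ureters, with Tbx18(cre/+), Fgfr1(fl/fl) and homozygous Fgfr2(fl/fl), was compared with RNA of control ureters, Fgfr1(fl/?) and Fgfr2(fl/?), all on the NMRI strain. Each of 2 arrays carried a mutant and a control RNA together, and the dyes were swapped between them. On array 1, from males per its label, Cy5 marked the mutant and Cy3 the control. Array 2, from females per its label, had the reverse. Sex label, dye orientation and replicate therefore cannot be told apart. Cre made from the Tbx18 locus acts in the mesenchyme around the ureteric epithelium, so the receptors were targeted in the tissue next to the epithelium that expresses these 8 genes. The labels list no Cre for the controls and leave their second alleles open, so loss of the receptors cannot be told apart from Cre at the Tbx18 locus. They also do not say how many embryos or litters went into an RNA sample. What the p-values measure is the variation among these RNA samples alone, and it may be technical.

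Epithelial cells hold together through E-cadherin (Cdh1), whose extracellular part binds the same protein on the next cell and whose tail binds catenins. P-cadherin (Cdh3) is a close relative found in basal cells of many epithelia, and EpCAM is a surface glycoprotein that tunes junctions and associates with claudin 7. ESRP1 and ESRP2 are splicing factors that favour the epithelial forms of transcripts such as Fgfr2 and Cd44. RAB25 is a small GTPase of the Rab11 family that returns membrane cargo to the apical side. OVOL1 and OVOL2 are zinc finger repressors that restrain mesenchymal genes. In the ureter such genes are active in the urothelium, the epithelium that lines its lumen.

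The sequences of the probes of Epcam and Rab25 are shown because each joins pieces that lie apart in the genome, so that these readings come from spliced RNA. Each probe is 60 bases long, while its mm9 coordinates span 829 bases for Epcam, chr17:88048972-88049800 on the + strand, and 390 bases for Rab25, chr3:88346274-88346663 on the - strand.
Epcam: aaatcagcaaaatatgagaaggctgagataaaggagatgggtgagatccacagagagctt
Rab25: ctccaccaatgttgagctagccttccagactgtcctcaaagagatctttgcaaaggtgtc
The other probes lie without a gap at chr8:109193812-109193871 (Cdh1, +), chr8:109079933-109079992 (Cdh3, +), chr8:108655089-108655148 (Esrp2, -), chr19:5549209-5549268 (Ovol1, -) and chr2:144131071-144131130 (Ovol2, -). The Esrp1 probes lie at chr4:11284629-11284688 and, farther along the transcript, at chr4:11260208-11260267 (-). Which exon or untranslated part each probe lies in was not worked out here.

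The 250 bases before the transcription start of Epcam and Rab25 are shown because each holds 2 copies of the E-box CAGGTG, read on both strands, the letters bound by repressors of epithelial genes such as ZEB1 and SNAI1. The sequences are RefSeq's, on GRCm38.p6, 5′ to 3′ on the gene's own strand, with E-boxes in capitals. The Epcam window is chr17:87635729-87635978 (+) and the Rab25 window is chr3:88548280-88548529 (-).
Epcam: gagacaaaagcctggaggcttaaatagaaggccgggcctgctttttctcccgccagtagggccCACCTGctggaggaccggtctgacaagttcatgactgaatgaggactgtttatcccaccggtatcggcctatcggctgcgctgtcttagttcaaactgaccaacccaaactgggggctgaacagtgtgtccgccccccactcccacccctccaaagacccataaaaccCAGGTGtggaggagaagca
Rab25: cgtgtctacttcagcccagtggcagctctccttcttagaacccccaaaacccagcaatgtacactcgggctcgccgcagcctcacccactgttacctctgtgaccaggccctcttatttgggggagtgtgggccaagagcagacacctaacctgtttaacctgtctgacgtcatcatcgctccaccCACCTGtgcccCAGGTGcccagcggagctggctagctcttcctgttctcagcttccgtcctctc
In Epcam the E-boxes begin at -187 and -19 relative to the start, and in Rab25 at -64 and -53. Of 8 members, 3 were matched in the promoter table, and the Ovol2 window held no E-box. Among 32851 promoter windows of this length, 17.2% held at least 1. The grainyhead motif AACCGGTT, found in 0.116% of windows, and the OVOL motif CCGTTA, found in 2.18%, were in none of the 3. Only these exact letters were searched, so shorter or looser forms of a motif were not counted. These matches describe letters and not binding.

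The share of probes well above background ran from 69.3% to 77.4% over the 4 channels, and the number of arrays limits the precision. Across genes the log2 ratios of array 1 and array 2 had a correlation of r = 0.52, where genes are not independent replicates. The 3 probes of the targeted Fgfr1 had mean log2 ratios, mutant over control, from -0.54 to -0.33, and the 2 Fgfr2 probes were at 0.56 and 0.76. The sources used here do not name the floxed exons, so these probes check neither the genotype nor the labels. Markers of the labelled tissue were present. All 7 markers each of superficial urothelium, basal urothelium, smooth muscle and ureteric mesenchyme were well above background in all 4 channels. So were all 7 endothelial and all 6 macrophage markers, so detection does not single out the labelled tissue.

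Of the 8 members, Cdh1 and Esrp2 rose in the mutant RNA and no member fell, at a limma adjusted p below 0.05. Over all 21981 genes tested the share that passed was 3.83%, with 1.78% higher and 2.05% lower. At an unadjusted p below 0.05 there were 4 members (Cdh1, Esrp2, Ovol1 and Ovol2), against 22.5% of all genes. Log2 ratios were above 0 on both arrays for 5 members (Cdh1, Esrp2, Ovol1, Esrp1 and Cdh3), against 30.5% of all genes. Ovol2 was below 0 on both arrays, as were 36% of all genes. The members' median log2 ratio was 0.17, against -0.02 over all genes. With median centring in place of loess these were -0.014 and -0.14. In bulk RNA, more epithelial cells and more transcript per cell cannot be told apart.

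**Figure D1:**
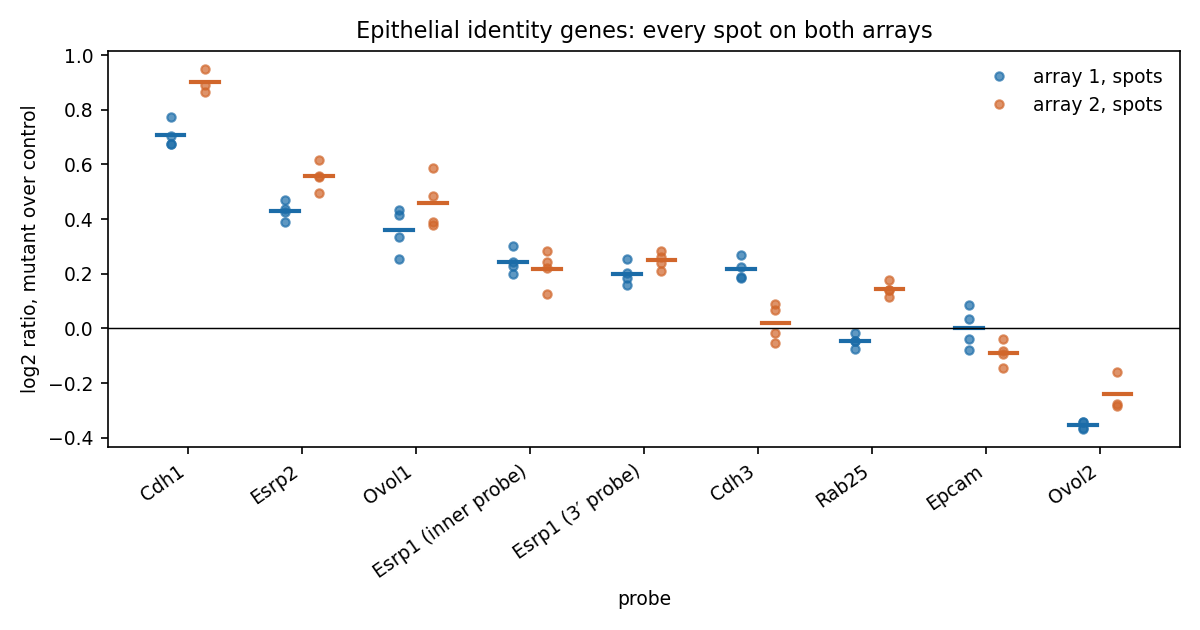
Log2 ratio of mutant over control (vertical axis) in each usable spot of the 9 probes, for array 1 and array 2, with a bar at each array's mean. The Cdh1 spots lie between 0.67 and 0.95, above the spots of every other member, and the Ovol2 spots lie between -0.37 and -0.16.

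Cdh1, the E-cadherin gene, changed most among the members. Its normalised log2 signal was 12.32 in the control and 13.03 in the mutant RNA of array 1, and 12.55 in the control and 13.45 in the mutant RNA of array 2. Both mutant values lay above both control values. Its log2 ratios, 0.71 (array 1) and 0.90 (array 2), had a mean of 0.80 ± 0.14 (SD, n = 2), a 1.75-fold difference. It passed at a limma adjusted p of 0.0153, with a 95% interval from 0.55 to 1.05, and ranked 51 from the top among all genes tested. Spots of this probe ranged from 0.67 to 0.77 on array 1, where 4 were usable, and from 0.87 to 0.95 on array 2, where 3 were. The call was lost, with log2 ratios of 0.58 to 0.82, in 4 of 9 other processings (adjusted p from 0.0513 to 0.270).

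No change of Cdh3, the P-cadherin gene, was detected. Its log2 signal was 10.44 in the control and 10.66 in the mutant RNA of array 1, and 10.58 and 10.60 on array 2. The mutant values lay above the control values, but on array 2 by no more than the spots of the probe differed among themselves, from -0.06 to 0.09. For array 1 the log2 ratio was 0.22 and for array 2 it was 0.021, with a mean of 0.12 ± 0.14 (SD, n = 2, limma adjusted p = 0.561) and a 95% interval from -0.13 to 0.37. With median centring of the arrays in place of loess, which shifted the all-gene median down from -0.02 to -0.14, Cdh3 was at -0.067. The intervals of Cdh1 and Cdh3 did not overlap, although the difference between these genes was not itself tested.

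**Figure D2:**
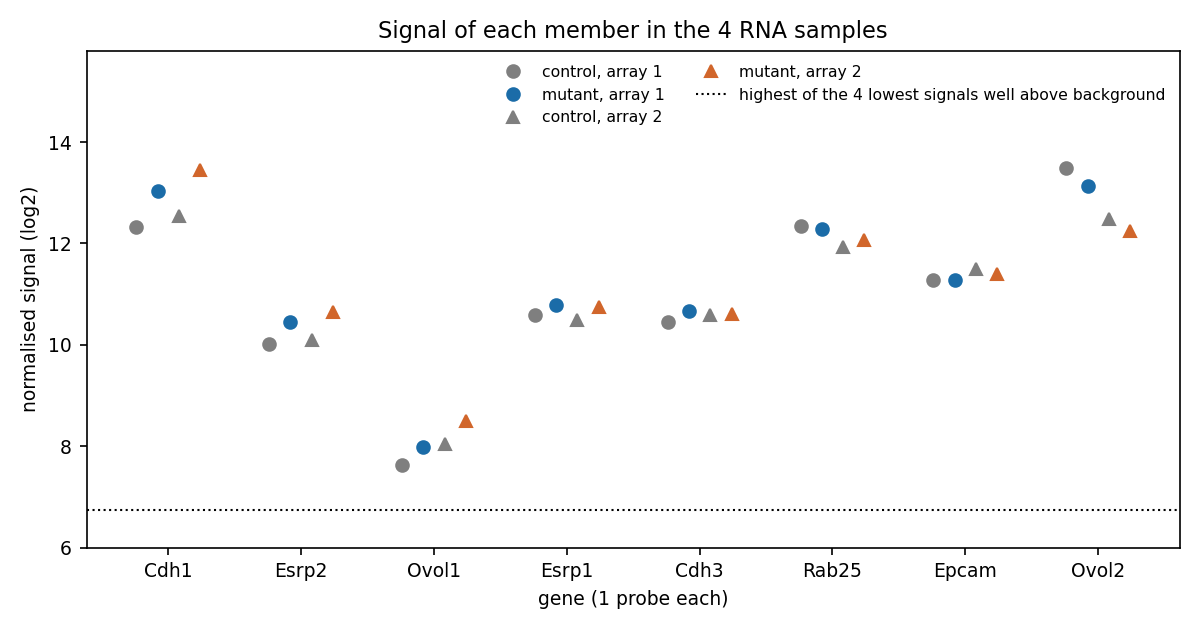
Normalised log2 signal (vertical axis) of each member in the 4 RNA samples, control and mutant on array 1 (circles) and array 2 (triangles), with 1 probe per gene and a dotted line at 6.74, the highest of the 4 lowest signals well above background. Mutant values lie above both control values for Cdh1, Esrp2, Esrp1 and Cdh3, and heights are not comparable between genes because probes differ in brightness.

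Mutant levels lay above both control levels for 4 of 8 members (Cdh1, Cdh3, Esrp1 and Esrp2), against 20.8% of all genes tested, and below both for none, against 24%. The levels of the other 4 members overlapped between genotypes.

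No change of Epcam was detected. Its log2 signal was 11.29 in the control and 11.29 in the mutant RNA of array 1, and 11.49 and 11.40 on array 2. These values overlapped between genotypes, and the gap between the arrays was wider than that between mutant and control. Log2 ratios were 0.00050 (array 1) and -0.089 (array 2), with a mean of -0.044 ± 0.064 (SD, n = 2, limma adjusted p = 0.842). Its 95% interval, from -0.29 to 0.20, holds no value as high as the lower end of the Cdh1 interval. Spots on array 1 fell on both sides of 0, from -0.08 to 0.09. With median centring the Epcam mean was -0.24 (limma adjusted p = 0.248). The difference between Epcam and Cdh1 was not itself tested.

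Of 8 genes tested whose products act with EpCAM, 2 rose and none fell, with a median log2 ratio of 0.31, or 0.13 with median centring. St14, which encodes the protease matriptase that cuts EpCAM, rose by 0.51 ± 0.15 (SD, n = 2, limma adjusted p = 0.0457). Cldn7, the claudin bound by EpCAM, rose by 0.58 ± 0.29 (SD, n = 2, limma adjusted p = 0.0460), with 0.37 on array 1 and 0.78 on array 2. Over both its probes the mean for Cldn7 was 0.30 (limma adjusted p = 0.151), and with no filter it did not pass (limma adjusted p = 0.0548).

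The splicing factor Esrp2 rose and its relative Esrp1 did not pass. For Esrp2 the log2 signal was 10.01 in the control and 10.44 in the mutant RNA of array 1, and 10.09 and 10.65 on array 2. Both mutant values lay above both control values, which differed little from each other. Mutant over control gave log2 ratios of 0.43 and 0.56, with a mean of 0.49 ± 0.09 (SD, n = 2), a 1.41-fold difference with a limma adjusted p of 0.0457. Its 95% interval ran from 0.25 to 0.74, and 98.2% of genes tested ranked at or below it. The call lay near the threshold and was lost in 4 of 9 other processings, with adjusted p from 0.0958 to 0.337 and log2 ratios from 0.31 to 0.54.

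Esrp1 was read by 2 probes that gave nearly the same answer. The brighter one, farther along the transcript, had a log2 signal of 10.59 in the control and 10.79 in the mutant RNA of array 1, and 10.49 and 10.74 on array 2. Mutant values again lay above both control values. Its log2 ratios were 0.20 and 0.25, with a mean of 0.22 ± 0.03 (SD, n = 2, limma adjusted p = 0.250) and a 95% interval from -0.02 to 0.46. The dimmer probe had log2 ratios of 0.24 and 0.22, with a mean of 0.23 ± 0.02 (SD, n = 2). On the ratios of the scanner software, which add no offset, the dimmer probe stood at 0.42 and 0.36. With median centring the mean of the brighter probe was 0.038 (limma adjusted p = 0.844). On each array the Esrp2 ratio was higher than that of Esrp1, and the difference was not itself tested.

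Among 9 transcripts whose splicing ESRP proteins are known to steer, 1 rose, 1 fell and 7 did not pass, with a median log2 ratio of 0.16. That median was 0.07 on array 1, 0.35 on array 2 and -0.04 with median centring, where the all-gene median was -0.14. Fgfr2, itself a targeted gene here, rose by 0.56 ± 0.02 (SD, n = 2, limma adjusted p = 0.0307). Cd44, the receptor for hyaluronan, fell by 0.65 ± 0.14 (SD, n = 2, limma adjusted p = 0.0241), and its 4 probes all had means below 0. Scrib, a polarity gene, was at 0.45 ± 0.09 and did not pass (limma adjusted p = 0.0564). No probe was assigned to a splice form here, so these values say nothing of exon choice. Of 11 other splicing regulators none passed in limma (1 at an unadjusted p below 0.05), and their median was 0.01, or -0.19 with median centring. The smallest p-values among them belonged to Rbm47 at 0.39 ± 0.42, Ptbp2 at -0.23 ± 0.03 and Rbfox2 at 0.33 ± 0.46 (SD, n = 2, limma adjusted p = 0.166, 0.232 and 0.249).

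Rab25, the epithelial Rab11 relative, had log2 ratios of opposite sign on the arrays. Its log2 signal was 12.34 in the control and 12.29 in the mutant RNA of array 1, and 11.93 and 12.08 on array 2. The genotypes overlapped, and both array 1 values lay above both array 2 values. The ratios were -0.046 for array 1 and 0.14 for array 2, with a mean of 0.049 ± 0.13 (SD, n = 2, limma adjusted p = 0.830) and a 95% interval from -0.20 to 0.30. Spots on a given array lay close together, from -0.07 to -0.02 on array 1 and from 0.12 to 0.18 on array 2, so the arrays differed by more than the spots did. With median centring the mean was -0.15.

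Of 12 genes of apical recycling, the route on which RAB25 acts, 1 rose and none fell, with a median log2 ratio of 0.21. Mal, a membrane protein of apical transport vesicles, rose by 0.62 ± 0.02 (SD, n = 2, limma adjusted p = 0.0242). The Rab11 effectors Rab11fip1, at 0.45 ± 0.02, and Rab11fip5, at 0.45 ± 0.14, did not pass (SD, n = 2, limma adjusted p = 0.0530 and 0.0604). With median centring the list's median was 0.02, and Mal was at 0.29 and did not pass (limma adjusted p = 0.405).

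The OVOL repressors lay on opposite sides of 0. Ovol1 had a log2 signal of 7.63 in the control and 7.99 in the mutant RNA of array 1, and 8.05 and 8.51 on array 2. The mutant value of array 1 lay below the control value of array 2, so the levels overlapped, while within each array the mutant was higher. Its log2 ratios of 0.36 (array 1) and 0.46 (array 2) had a mean of 0.41 ± 0.07 (SD, n = 2, limma adjusted p = 0.0720) and a 95% interval from 0.17 to 0.65. The lowest signals well above background were 6.48 to 6.74 by channel. By mean signal, 46.7% of all probes ranked at or below the Ovol1 probe. On the scanner software's ratios Ovol1 stood at 0.57 and 0.65. It passed in 1 of 9 other processings, the variance model with a trend (limma adjusted p = 0.0390).

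Ovol2 had a log2 signal of 13.49 in the control and 13.13 in the mutant RNA of array 1, and 12.49 and 12.25 on array 2. The mutant was lower within each array, but both array 1 values lay above both array 2 values. Its log2 ratios of -0.35 (array 1) and -0.24 (array 2) had a mean of -0.30 ± 0.08 (SD, n = 2, limma adjusted p = 0.152). The 95% interval, not adjusted for the number of genes, ran from -0.54 to -0.05. An interval that leaves out 0 matches an unadjusted limma p below 0.05, which 22.5% of all genes had. The intervals of Ovol2 and Ovol1 did not overlap, but neither gene passed and their difference was not itself tested. The adjusted p of Ovol2 did not pass in any of 9 other processings. Spots ranged from -0.37 to -0.34 on array 1 and from -0.28 to -0.16 on array 2, where 3 were usable.

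**Figure D3:**
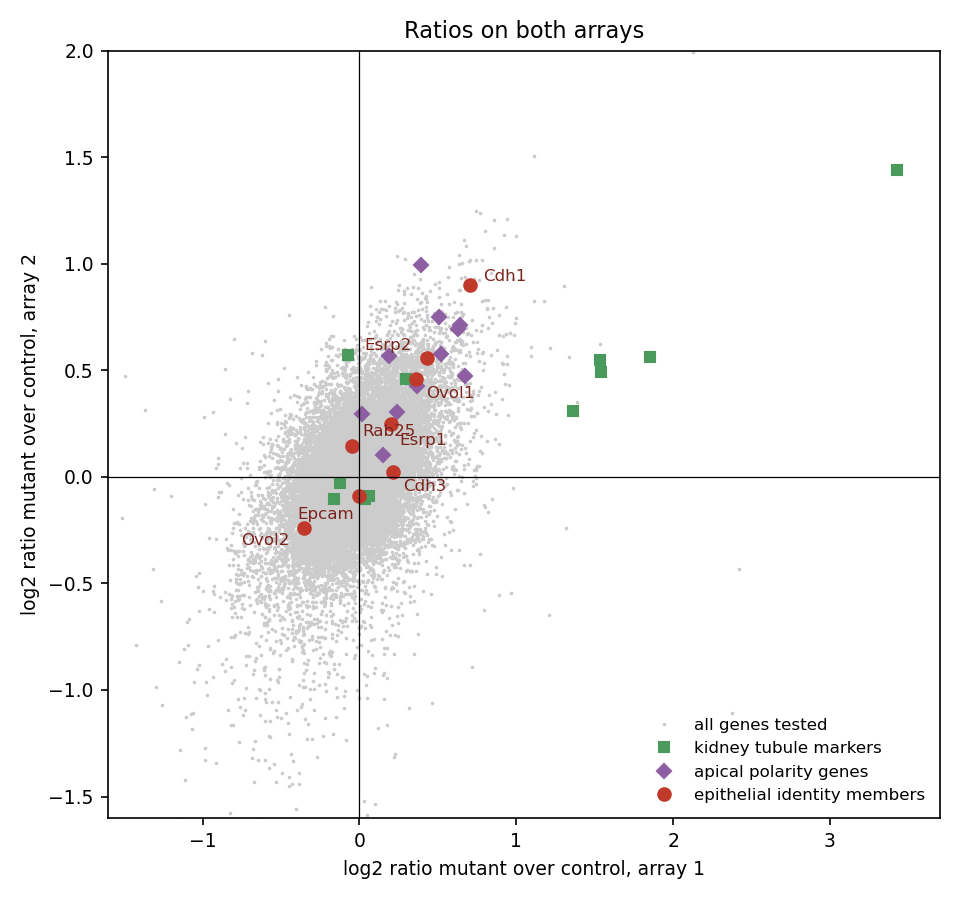
Log2 ratio of mutant over control on array 1 (horizontal axis) and array 2 (vertical axis) for all genes tested (grey, 43 of 21981 outside the axes), the 8 members (red circles), apical polarity genes (purple diamonds) and kidney tubule markers (green squares). Cdh1 lies at 0.71 and 0.90, near the edge of the grey cloud, and Ovol2 is the only member below 0 on both axes.

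Genes with the pair of ratios nearest to that of Cdh1, by Euclidean distance over the 2 arrays, were 9430037G07Rik (distance 0.0135), Upb1 (0.0251), Tmco4 (0.0356), AI661453 (0.0527) and Slco2a1 (0.0579). Among the members Esrp2 was nearest to Cdh1, at 0.442, and Ovol2 farthest, at 1.56. The closest pair of members was Esrp2 and Ovol1, at 0.120.

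Of 12 other transcription factors of epithelia tested, 3 rose and none fell, with a median log2 ratio of 0.35. That median was 0.18 on array 1, 0.44 on array 2 and 0.14 with median centring. Grhl3, a grainyhead factor of barrier formation, rose by 0.82 ± 0.02 (SD, n = 2, limma adjusted p = 0.0145). The zinc finger factor Gata3 rose by 1.00 ± 0.33 and the forkhead factor Foxa1 by 0.79 ± 0.20 (SD, n = 2, limma adjusted p = 0.0150 and 0.0185).

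Of 12 partners of E-cadherin at adherens junctions, 2 rose and none fell, with a median of 0.24. On array 1 the median was 0.10, on array 2 it was 0.33, and with median centring 0.11. Nectin4, an adhesion molecule, rose by 0.62 ± 0.01, and Plekha7, which links junctions to microtubules, rose by 0.55 ± 0.15 (SD, n = 2, limma adjusted p = 0.0239 and 0.0375). As means over their probes these 2 were at 0.41 and 0.42 and did not pass (limma adjusted p = 0.0523 and 0.0504). Nectin2 was at 0.45 ± 0.13 (SD, n = 2, limma adjusted p = 0.0590). The 4 catenins of the list, named after their values were seen, did not pass. Ctnnb1 was at 0.058, Jup at 0.19 and Ctnnd1 at 0.32, all of which bind cadherin tails, and Ctnna1, which binds through beta-catenin, was at 0.13 (limma adjusted p = 0.789, 0.351, 0.173 and 0.512).

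Of 12 other cadherins tested, 1 rose and 2 fell, with a median of -0.10, or -0.24 with median centring. Cdh16, the kidney-type cadherin, rose by 2.43 ± 1.41 (SD, n = 2, limma adjusted p = 0.0190), with 3.43 on array 1 and 1.44 on array 2. Cdh13, anchored to the membrane by lipid, fell by 0.71 ± 0.15, and the endothelial Cdh5 fell by 0.69 ± 0.15 (SD, n = 2, limma adjusted p = 0.0217 and 0.0225).

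Apical polarity and tight junction genes were the companion list with the most calls. Of 11 tested, 6 rose, none fell, and all 11 were above 0 on both arrays, with a median of 0.55, or 0.35 with median centring and 0.36 as means over the probes of a gene. Llgl2, a basolateral polarity protein, rose by 0.68 ± 0.05, the Par complex gene Pard6b by 0.66 ± 0.05 and the tight junction scaffold Tjp3 by 0.63 ± 0.17 (SD, n = 2, limma adjusted p = 0.0212, 0.0225 and 0.0268). Of the other called genes, named here because their calls were lost, Prkcz and Patj did not pass as means over probes (0.31 and 0.36, limma adjusted p = 0.119 and 0.0743) and Lsr did not pass with no filter (limma adjusted p = 0.0569). Of 7 simple epithelial keratins and claudins, 2 rose and none fell, with a median of 0.28 (0.12 on array 1, 0.35 on array 2). With median centring that median moved to -0.03, against -0.14 over all genes. Cldn8 rose by 0.79 ± 0.18 and Krt18 by 0.61 ± 0.04, while Cldn4 was at 0.45 ± 0.24 and did not pass (SD, n = 2, limma adjusted p = 0.0178, 0.0243 and 0.0767). Krt18 did not pass with a variance trend (limma adjusted p = 0.0795), and with median centring it was at 0.26 (limma adjusted p = 0.548).

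**Figure D4:**
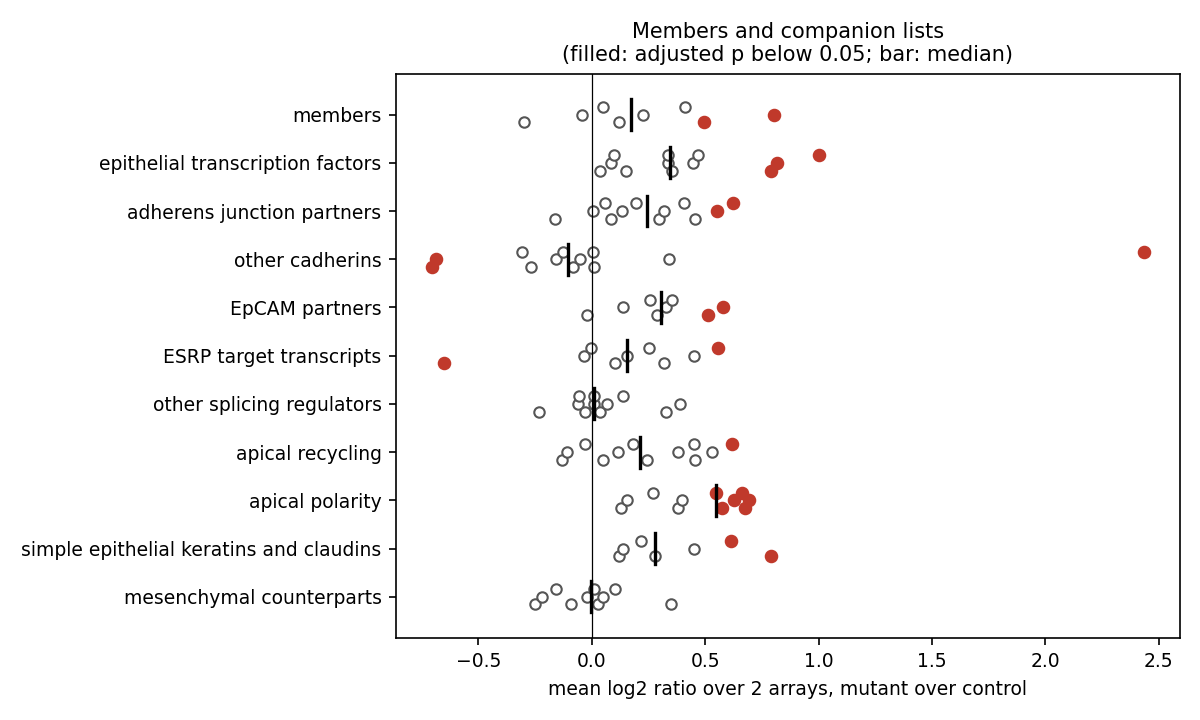
Mean log2 ratio of mutant over control (horizontal axis) of each tested gene in the members and the 10 companion lists (rows), with a bar at each median, filled where the limma adjusted p was below 0.05. The apical polarity list has 6 filled points and a median of 0.55, against 2 filled points and 0.17 for the members. With median centring, which put the all-gene median at -0.14, the members' median was -0.014. Those of ESRP target transcripts and of keratins and claudins were then -0.044 and -0.030, also above the all-gene median.

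In 6 epithelial companion lists together, 16 of 62 genes tested rose and none fell (25.8%), with a median of 0.33, against 1.78% of all genes higher. These 6 were epithelial transcription factors, adherens junction partners, EpCAM partners, apical recycling, apical polarity, and keratins and claudins. The companion genes that fell, Cdh13, Cdh5 and Cd44, stand in lists left out of these 6. Over all 10 companion lists 21 of 101 genes passed, 18 higher and 3 lower, with a median of 0.16. Under 4 of 9 other processings 0 to 3 genes of the 10 lists passed. Of 10 mesenchymal counterparts none passed in limma (1 at an unadjusted p below 0.05), and their median was -0.01, or -0.21 with median centring. The smallest p-values there belonged to fibronectin Fn1 at 0.35 ± 0.27, vimentin Vim at -0.25 ± 0.21 and the E-box repressor Zeb1 at -0.22 ± 0.01 (SD, n = 2, limma adjusted p = 0.148, 0.247 and 0.256).

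Markers of cell types that could carry these transcripts were read in the same RNA. For superficial urothelium 3 of 7 markers rose, with a median of 0.45 (0.30 on array 1, 0.61 on array 2, and 0.17 with median centring), and their summed log2 signal was 17.44 to 17.45 in control and 17.91 to 18.18 in mutant RNA. For basal urothelium 1 of 7 rose, with a median of the means of 0.11. With median centring that median moved to -0.11, against -0.14 over all genes. In the reported setting the basal medians of the separate arrays were below 0, at -0.12 and -0.23. At an unadjusted limma p below 0.05, 2 basal markers were higher and 3 lower, all named after their values were seen. The higher were Lamb3 at 0.49, which passed (limma adjusted p = 0.0497), and Trp63 at 0.45, which did not (limma adjusted p = 0.0559). Of 4 Trp63 probes, 2 had means above 0. The lower were Krt5 at -0.46, Krt14 at -0.43 and Col17a1 at -0.25, and none passed (limma adjusted p = 0.0830, 0.136 and 0.208). The basal sum was 14.85 to 14.92 in control RNA and 1.15-fold (array 1) and 1.06-fold (array 2) as large in mutant RNA. Of 15 kidney tubule markers 11 were tested and 4 passed as higher, 2 of them admitted by the mutant RNA alone. The list's median was 0.38 (0.30 on array 1, 0.46 on array 2). Sums were 15.10 to 15.22 in control and 15.15 to 15.78 in mutant RNA. Over the 9 with a probe well above background in all 4 channels the median was 0.25. The 4 were Cdh16, the potassium channel Kcnj16 at 1.85 on array 1 and 0.56 on array 2, Umod and Kcnj1. The last 2 were not well above background in control RNA on either array. Umod and Kcnj1 entered the test only through the mutant RNA, where they are high, so their calls (limma adjusted p = 0.0330 and 0.0394) are not support for a difference. Set against that dim control reading, the log2 ratios were 1.53 and 0.55 for Umod and 1.54 and 0.49 for Kcnj1 on arrays 1 and 2. As a mean over both arrays, mutant signal was at least 1.86-fold that of the control for Umod and at least 1.73-fold for Kcnj1, against the lowest signal well above background or the probe's own if higher. These bounds describe the same selected readings and are not support for a difference either. With no filter on dim probes Umod, Kcnj1 and Kcnj16 did not pass (limma adjusted p = 0.0524, 0.0609 and 0.0619). The tubule markers Slc12a1, Slc12a3 and Calb1 were not well above background in any channel. Among the 11 tested, 6 were above 0 on both arrays and 2 were below 0 on both. Those 2 were Slc34a1 at -0.14 and Aqp2 at -0.08, named after their values were seen. Ptger3 at -0.03, Cubn at -0.01 and Aqp3 at 0.25 had opposite signs on the arrays. Of 7 mesothelial markers 5 were tested and 2 rose, Msln by 1.08 ± 0.19 and Upk3b by 0.55 ± 0.20 (SD, n = 2, limma adjusted p = 0.00969 and 0.0419). Their list had a median of 0.22, or 0.13 with median centring, and sums of 16.10 to 16.18 and 16.21 to 16.54. Krt19 at 0.22, Wt1 at 0.19 and Lrrn4 at 0.0018 did not pass. The mesothelial marker Bnc1 was not well above background in any channel, and Upk3b stands in the superficial urothelium list too. Their part in the values of Cdh1 and Esrp2 was not tested.

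Markers of smooth muscle, mesenchyme, fat, vessels, macrophages and nerve were read in the same RNA. None of 7 smooth muscle markers passed in limma (0 at an unadjusted p below 0.05), with a median of -0.02, or -0.35 with median centring, and summed log2 signals of 19.22 in both control RNAs and 19.17 to 19.27 in mutant RNA. Of 7 ureteric mesenchyme markers 1 rose, with a median of 0.43, or 0.22 with median centring, and sums of 16.01 to 16.06 and 16.15 to 16.60. All 6 adipocyte markers tested fell, with a median of -1.95 (-1.15 on array 1, -2.88 on array 2) and sums of 15.79 to 16.05 and 12.69 to 14.89. Of 7 endothelial markers 5 fell, with a median of -0.61 and sums of 12.33 to 12.44 and 11.90 to 11.91. Of 6 macrophage markers 3 fell, with a median of -0.46 (-0.31 on array 1, -0.69 on array 2) and sums of 16.02 to 16.41 and 15.53 to 16.10. Of 7 neuronal and Schwann cell markers 4 fell, with a median of -0.65 and sums of 15.42 to 15.78 and 15.81 to 15.96. All 842 calls rest on 2 arrays, and whether the makeup of the explants moved the members was not tested.

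**Figure D5:**
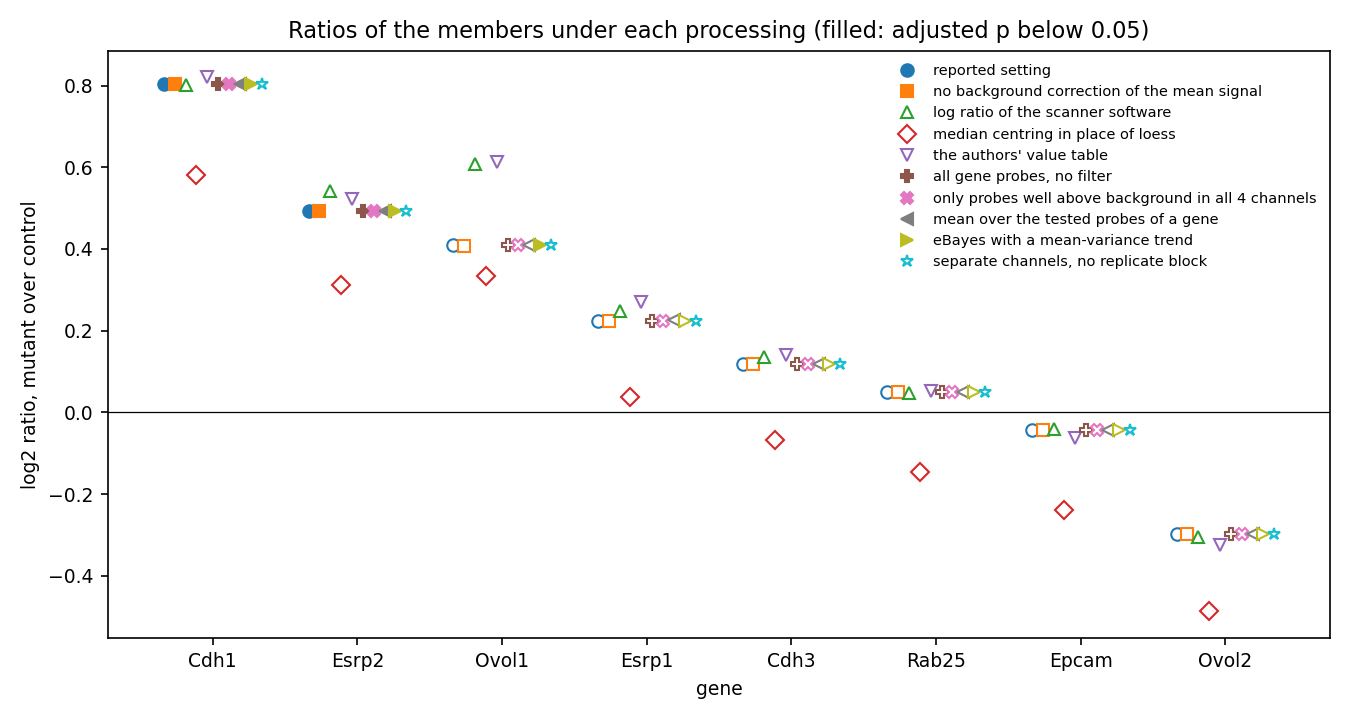
Log2 ratio of mutant over control (vertical axis) of each member under the reported setting and 9 other processings, filled where the limma adjusted p was below 0.05. Cdh1 and Esrp2 stay above 0 in every one and are filled in 5 of 9, and median centring (diamonds) is the lowest value of every member and puts Cdh3 and Rab25 below 0.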

How the data were processed

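Mutant and control RNA of cultured ureters, 150 ng per labelling, was hybridised to 2 two-colour Agilent arrays on the same slide and in 1 scan, per the labels and the file headers. The deposited scanner files hold intensity values (mean signal of a spot and median signal around it) that Agilent Feature Extraction (version 10.7.3.1 in the submitters' processing notes) produced. Their log10 ratios, red over green, were written by that software as well, per the file headers. The deposited value table is a score for each probe that behaved as a signed fold change, mutant over control. It correlated with the ratios used here at r = 0.90 and 0.92 over probes, its median was 1 on both arrays, and 8097 and 9100 values stood at exactly 1. The sources used here do not say how it was centred. Probe coordinates are mm9, per the file headers.

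Ratios were computed with limma 3.58.1 in R 4.3.3: normexp background correction with an offset of 50, which pulls ratios of dim probes towards 0, then loess within each array. Control spots had weight 0 and outlier spots (3.17% and 3.65% of gene spots) were left out. The 4 spots of a probe were averaged, with a median SD of 0.07 log2 on each array, against 0.11 between arrays. Probes entered the test when 1 genotype's RNA stood well above background on each of the arrays, so that 28915 probes remained for 21981 genes, each read by its brightest probe. Of 39429 probes, 7458 found no match in RefSeq's names and are called as in the file, perhaps by an old name. The labelled dyes gave each ratio its direction, mutant over control, and it was tested against 0 by a two-sided moderated fit (lmFit, eBayes), adjusted by Benjamini-Hochberg over all genes, with a call at 0.05. There was 1 residual degree of freedom, to which the prior added 7.48. An exact sign permutation over 2 arrays cannot go below p = 0.5. Levels are channel signals after normalisation between arrays (Aquantile), and summed levels are log2 of the summed signals of a marker list's tested genes.

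The members and the 20 gene lists, 9 of whose genes stand in more than 1 list, were chosen with earlier results of these data known, so counts over them are descriptions. Companion genes are named by smallest p (3 per list) and, where 5 or fewer passed, by call. A gene that this rule names is not reported here. Other settings tried were the background step, normalisation, the authors' table, filters on dim probes, averaging over probes, a variance trend, separate channels and each array alone.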

Additional observations from a re-analysis of the deposited data

How the results depend on the processing

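The number of genes that passed was 842, and 10 on the scanner software's ratios (4609 at an unadjusted p below 0.05), 0 with median centring (5567), 140 on the authors' table, 1415 with a variance trend and 3 with separate channels and no replicate block. Members that passed were 0 on the software's ratios, 0 with median centring, 0 on the authors' table and 0 with separate channels (4, 4, 4 and 2 at an unadjusted limma p below 0.05). Companion genes that passed were 21, and 0, 0, 3 and 0 in those 4 settings (41, 30, 43 and 36 unadjusted). Cell type markers were 28, and 2, 0, 7 and 0 (44, 39, 44 and 37 unadjusted). In the same order, Cdh1 was at 0.80, 0.58, 0.82 and 0.80 (limma adjusted p = 0.0737, 0.120, 0.0513 and 0.270). Esrp2 was at 0.54, 0.31, 0.52 and 0.49 (limma adjusted p = 0.108, 0.177, 0.0958 and 0.337). The members' median of 0.17 was 0.19, -0.014 and 0.20 in the first 3 of these. The all-gene median, -0.02 in the reported setting, was -0.02, -0.14 and -0.01 there. Median centring put Rab25 at -0.15 and Cdh3 at -0.067. With a variance trend Ovol1 passed at 0.41 (limma adjusted p = 0.0390), as did Nectin2, Scrib, Rab11fip1, Rab11fip5 and Cldn4, and Krt18 did not. The cause of these changes was not tested. With no background correction, no filter, a filter on all 4 channels or a mean over probes, Cdh1 and Esrp2 passed. With 1 array left out no test can be made. The members' median then ran from 0.20 to 0.21, and Epcam was at 0.00050 or -0.089 and Rab25 at -0.046 or 0.14 on array 1 or array 2 alone.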
